A study of Mus musculus with 4 samples.

Results

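Chromatin accessibility was measured at 10 genes of the Serpina cluster on mouse chromosome 12 in hepatocytes of undamaged and regenerating liver. The members were Serpina10, Serpina6, Serpina1b, Serpina1d, Serpina1a, Serpina1c, Serpina1e, Serpina3k, Serpina3m and Serpina3n, in genomic order, out of 21910 protein-coding genes of the GENCODE vM21 annotation. They were taken by name. The cluster spans chr12:103614786-104414329 (mm10) and holds 18 further genes or pseudogenes with a Serpina symbol. The assay was single-nucleus ATAC-Seq (scATAC-Seq), which reads where the transposase Tn5 can cut the DNA of a nucleus, with 1 barcode for each droplet. The mice were adult C57BL/6J males, 10 to 12 weeks old by the labels, on a normal diet, with no allele altered. Hepatocytes were released with collagenase from undamaged liver (PHx 0 h) or from liver that had lost most of its mass by surgery, partial hepatectomy (PHx), 48, 72 or 96 h earlier. The 4 groups had 1 library each. That of 48 h came from 1 mouse, and the sources used here do not give how many mice the libraries of 72 and 96 h came from. There were therefore no replicates and no tests, and time and library cannot be told apart in any comparison.

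Serpins are a family of proteins that mostly trap and inhibit serine proteases, and liver is the main source of those in blood plasma. The Serpina1 genes encode alpha-1 antitrypsin, the plasma inhibitor of neutrophil elastase, a single gene in humans that was copied several times in the mouse. The Serpina3 genes are the mouse counterparts of alpha-1 antichymotrypsin, likewise multiplied, and Serpina3n is known as an acute phase gene. Serpina6 encodes corticosteroid-binding globulin, a hormone carrier that does not inhibit proteases. Serpina10 encodes the protein Z-dependent inhibitor of coagulation factor X.

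The copied Serpina1 genes share nearly all of their promoter sequence, which sets how the reads of each can be told from those of the others. The RefSeq promoter table (GRCm38.p6) held 6 of the 10 members, the 5 Serpina1 genes and Serpina3n. Serpina10, Serpina6, Serpina3k and Serpina3m were not matched. Over the aligned bases of the 250 upstream of the start, the Serpina1 genes were 92.1% to 98% identical in pairs, and 73.2% to 79.8% identical to Serpina3n. The 70 bases that follow are a stretch upstream of each start, written 5′ to 3′ on the strand of the gene, here the minus strand. They are shown because the peaks over these nearly identical starts were called differently in the 4 libraries. Capitals mark TGTTTGC, letters that forkhead factors are known to bind, and GTTAAT, the core letters of sites of the liver factor HNF1.
Serpina1b, chr12:103738200-103738269: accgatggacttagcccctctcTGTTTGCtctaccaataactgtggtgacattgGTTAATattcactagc
Serpina1d, chr12:103773634-103773703: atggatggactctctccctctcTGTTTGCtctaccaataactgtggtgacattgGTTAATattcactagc
Serpina1a, chr12:103863625-103863694: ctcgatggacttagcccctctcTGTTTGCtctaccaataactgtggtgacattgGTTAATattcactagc
Serpina1c, chr12:103904962-103905031: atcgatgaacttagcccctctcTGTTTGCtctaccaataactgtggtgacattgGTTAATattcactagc
Serpina1e, chr12:103956960-103957029: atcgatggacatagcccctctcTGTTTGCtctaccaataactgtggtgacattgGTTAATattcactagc

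Against Serpina1a, and counted from 1 at the 5′ end of the stretch, Serpina1b differed by C1A and T2C, Serpina1c by C1A and G8A, and Serpina1e by C1A and T11A. Serpina1d differed at 6 positions (C1A, C3G, T12C, A13T, G14C and C15T). The stretch began at position -70 from the RefSeq start in Serpina1d, at -75 in Serpina1a, at -80 in Serpina1b, at -81 in Serpina1c and at -132 in Serpina1e. Searched on both strands of the 250 upstream bases, GTTAAT was found in all 5 Serpina1 promoters, not in that of Serpina3n, and in 6.43% of the 32851 promoters of the table. TGTTTGC was likewise found in the 5 and in 4.3% of all, and both sets of letters together in the 5 and in 0.317% of all. TTGCNNAA, letters of C/EBP factors, was found in Serpina1b, Serpina1d and Serpina1e and in 9.56% of all promoters. The STAT letters TTCNNNGAA, found in 7.02% of all, were in none of the 6. These matches describe the letters and do not show that a factor was bound.

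The identity of the copies extended into the genes. Of the 50-base words (50-mers) in the RefSeq gene bodies, 46.8% occurred once in the genome for Serpina1a, 45% for Serpina1c, 57.4% for Serpina1d, 60% for Serpina1e and 60.7% for Serpina1b. The shares were 93.2% for Serpina3k, 91% for Serpina3m, 95.5% for Serpina3n, 61.1% for Serpina10 and 100% for Serpina6. Values of single Serpina1 genes are therefore uncertain, since a read from a repeated stretch cannot be placed in 1 copy. The GENCODE models overlap too. That of Serpina1b is 102218 bp long against 10034 bp in RefSeq and encloses Serpina1d, and that of Serpina3m, 55772 bp against 7103 bp, starts with Serpina3k and encloses it. Between 13.4% and 15.5% of the counts at the members lay in peaks counted for both genes of such a pair.

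Each value below is the sum of cut-site counts in the peaks over a gene body and the 2 kb upstream, in nuclei with at least 1000 counts, divided by all counts in peaks of that library and scaled to CPM (counts per 1000000). Such nuclei numbered 3977, 3892, 4256 and 3224 at 0, 48, 72 and 96 h and held between 14935507 and 136582768 counts, fewer at each later time. Peaks had been called in each library separately, and the mean peak density was 6.51, 5.59, 7.08 and 16.4 CPM per kb. Hepatocyte markers gave summed levels of 4730, 5658, 3862 and 5550 CPM over the 9 genes found, none at 0. The 4 lists of markers of endothelial, myeloid, mesenchymal and lymphoid cells summed to between 4.09 and 503 CPM each, with endothelial markers at 380.0, 399, 503 and 235 CPM. The part of such cells in the values of whole libraries was not tested, but values in hepatocyte marker nuclei alone are given further on.

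Summed over the 10 members, with each peak counted once, accessibility differed by less than counting error between 0 and 48 h and was lower at 72 and 96 h. The levels were 1368 CPM at 0 h (exact 95% Poisson interval 1359 to 1377, n = 1 library), 1380.1 at 48 h (1367 to 1393), 779 at 72 h (763 to 794) and 929.6 at 96 h (908 to 952). The intervals cover counting error only. On the log2 scale, with a pseudocount of 1 CPM, the differences from 0 h were 0.01, -0.81 and -0.56. With binarised counts, in which a peak adds at most 1 to a nucleus however long it is, the differences at 72 and 96 h were -0.06 and 0.23. How often this cap is reached also depends on depth. The median nucleus held 26005, 11629, 4841 and 3681.5 counts at 0, 48, 72 and 96 h. How far depth moved the binarised values was not tested. The peaks counted covered 172330, 189021, 122992 and 73445 bp. Per kb of peak and relative to the mean peak of its own library, the members stood at 1.22, 1.31, 0.894 and 0.771, so that they were denser than the average peak at 0 and 48 h and less dense at 72 and 96 h. In the whole cluster 30.1%, 33.6%, 22.4% and 13% of the sequence lay in peaks, numbering 93, 112, 106 and 89.

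**Figure D1:**
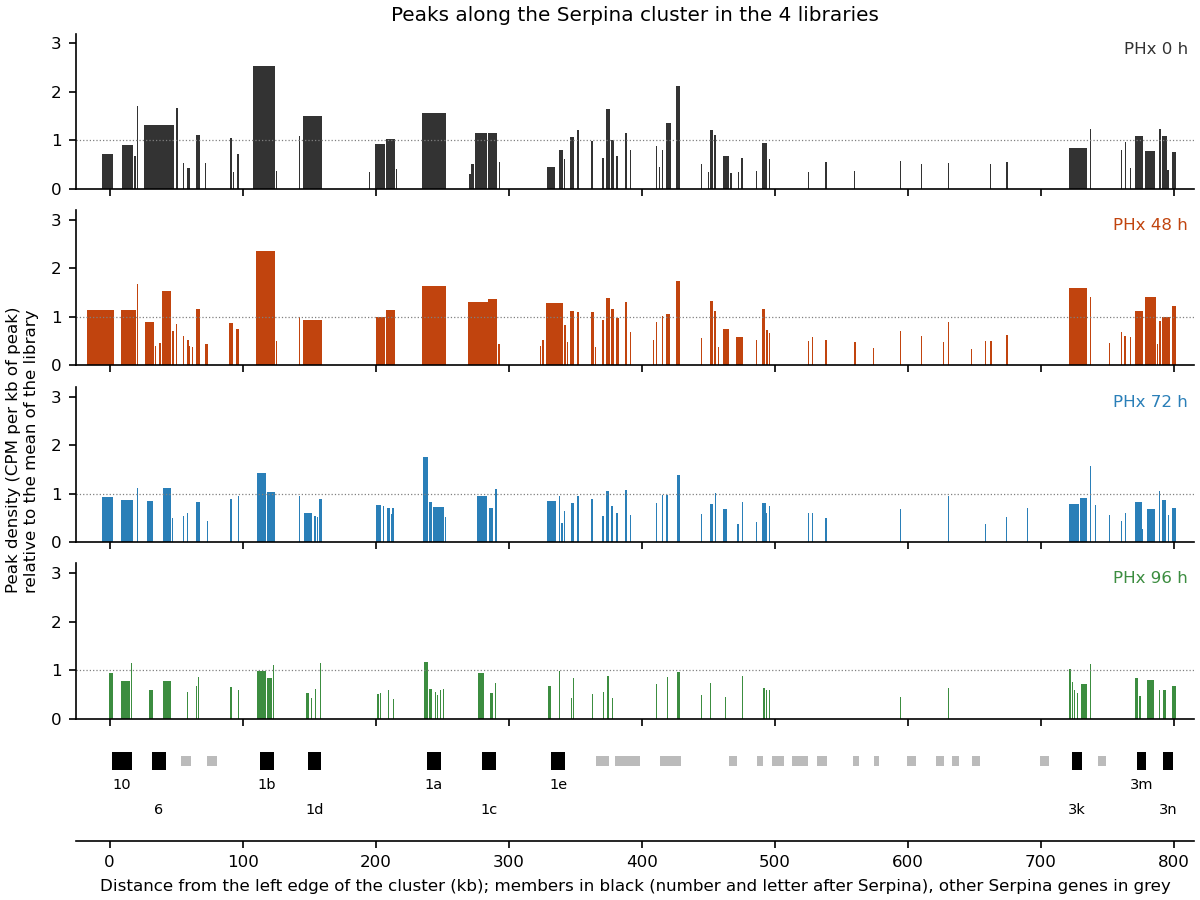
Peaks along the cluster in the 4 libraries. Each bar is a peak, its width the length called and its height the CPM per kb of peak relative to the mean of that library (dotted line, 1), with genes below. Broad, dense peaks lie over Serpina1b, Serpina1a, Serpina6 and Serpina1d at 0 h, and the same stretches are split into shorter and relatively lower peaks at 96 h. The middle of the cluster, right of Serpina1e and up to Serpina3k, holds mostly short peaks, and few of them in its right part.

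The members did not move together. A gene was counted as higher or lower when its CPM differed at least 1.5-fold from 0 h and the mean of both libraries was at least 5 CPM. At 48 h, 3 of the 10 members were higher, against 12.6% of the 15291 protein-coding genes past the same minimum, and 2 were lower, against 7.04%. At 72 h none was higher, against 19.3% of 15500 genes, and 5 were lower, against 15.8%. At 96 h, 1 was higher, against 17.4% of 15046 genes, and 5 were lower, against 16.9%. All 10 passed the minimum in each comparison. These counts changed with binarised counts, which gave 0 higher and 0 lower at 48 h (9.04% and 4.79% of genes). At 72 h they gave 0 higher and 1 lower (15.1% and 15.7%), and at 96 h 3 higher and 1 lower (12.5% and 16.3%). The median log2 difference of the members was 0.31, -0.61 and -0.54 at 48, 72 and 96 h, beside -0.04, -0.02 and 0.08 over all genes. The 3 comparisons share the library of 0 h.

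**Figure D2:**
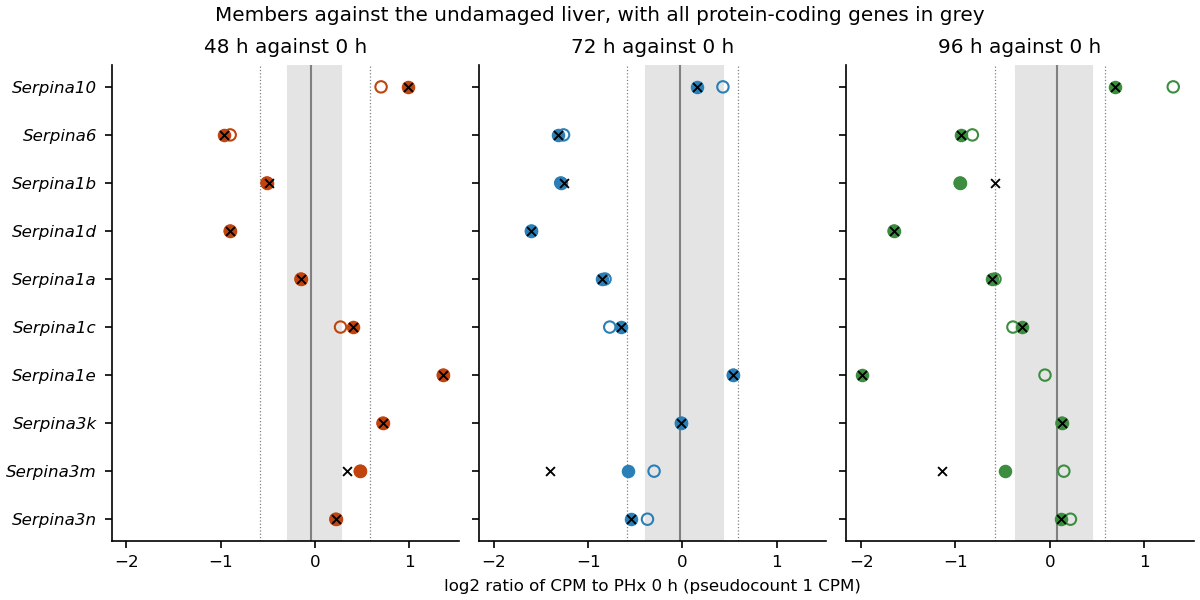
Log2 ratio of CPM to PHx 0 h for each member (filled circles). Open circles count every peak of the merged regions that touch the gene, crosses use the shorter RefSeq gene bodies, the grey band and line are the middle 50% and the median of all protein-coding genes, and dotted lines mark 1.5-fold. At 72 h the circles of Serpina6, Serpina1b, Serpina1d, Serpina1a and Serpina1c lie left of the lower dotted line. At 96 h the filled and open circles of Serpina1e lie far apart, at -1.99 and -0.05.

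Of the 5 Serpina1 genes, the alpha-1 antitrypsin copies, 3 were at least 1.5-fold lower than in undamaged liver at both 72 and 96 h. The other 2 had their highest level at 48 h, and of these Serpina1c was also lower at both later times, past 1.5-fold at 72 h only. Serpina1b (chr12:103728156-103830373 in GENCODE) had the highest level of all members in every library over this long window, at 510.2, 357, 208 and 263 CPM at 0, 48, 72 and 96 h. Over the RefSeq body it had 272, 193, 114 and 182 CPM, and at 48 h Serpina10 (196 CPM) was above it. Its log2 differences from 0 h were -0.51, -1.29 and -0.95, and the value at 96 h was -0.58 with the RefSeq body, just short of 1.5-fold. Serpina1d (chr12:103763594-103773592) stood at 138, 73.7, 45.1 and 43.6 CPM, with differences of -0.90, -1.60 and -1.65. Its levels at 72 and 96 h had overlapping intervals (41.4 to 49.0 and 39.0 to 48.6). Serpina1a (chr12:103853589-103863562) stood at 181, 163, 99.9 and 118 CPM, with differences of -0.15, -0.85 and -0.61. The last was -0.58, short of 1.5-fold, with all peaks of the merged regions that touch the gene. Binarised counts turned the sign at Serpina1a (0.54 and 0.83 at 72 and 96 h) and at Serpina1b at 96 h (0.21). They put Serpina1d within 1.5-fold of 0 h at each time (-0.19, -0.40 and -0.33).

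Serpina1c and Serpina1e, which lie farthest right of the copies, differed from these in having their highest level at 48 h. Serpina1c (chr12:103894926-103904887) had 121, 159, 76.8 and 98.3 CPM, with differences of 0.40, -0.65 and -0.29. Serpina1e (chr12:103946931-103958975) had 37.0, 96.7, 54.4 and 8.57 CPM, with differences of 1.36, 0.54 and -1.99. The value at 96 h turned on where the window ends. A peak of 27.1 CPM and 2467 bp at chr12:103944314-103946780 lay just past the 3′ end of the gene, while in the other libraries the peak there reached into it. With 2 kb added downstream, or with all peaks of the merged regions counted, the difference at 96 h was -0.05. In these merged regions the stretch over and past the gene body stood at 32.2, 89.3, 49.6 and 35.6 CPM, in peaks of 8553, 12430, 8878 and 3060 bp. The higher level at 48 h, 1.36, was the same in both, and with binarised counts it was 0.52.

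The peaks over the Serpina1 genes were broken up at 96 h, with gaps at like distances from the start in some places and not in others. From 2 to 2.5 kb past the start, all 500 bp lay in peaks at Serpina1b and none at Serpina1d. At 0 and 48 h, 1 peak of 13947 to 17863 bp ran over the whole gene and past both ends at Serpina1b, Serpina1d and Serpina1a. At 96 h these genes had separate peaks over the start, within the gene and over the 3′ end. The peaks over the RefSeq starts were then 1048 bp long with 18.9 CPM at Serpina1b, 691 bp with 13.1 CPM at Serpina1d, 807 bp with 7.83 CPM at Serpina1a and 976 bp with 11.9 CPM at Serpina1c. At Serpina1e a peak over the RefSeq start, chr12:103956897, held 4.85, 6.77 and 4.77 CPM at 0, 48 and 72 h. At 96 h no peak covered it, and within 1 kb there was only a peak of 17 bp with 0.067 CPM. Under nearly identical sequence, the start peak of Serpina1b thus held the most CPM of the 5 at 96 h, though per kb that of the shorter peak of Serpina1d was higher. The intervals of the CPM of Serpina1d (10.6 to 15.9 CPM) and Serpina1c (9.57 to 14.7 CPM) overlapped.

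At 96 h, the peak with the most counts within 5 kb of the gene lay over the 3′ end rather than the start at 4 of the Serpina1 genes, with 105 CPM at Serpina1b, 63.6 at Serpina1a, 60.6 at Serpina1c and 19.2 at Serpina1d. At Serpina1e it was the peak just past the 3′ end. These peaks were longer than those over the start, between 2234 and 6493 bp. Per kb, the start peak was the denser at Serpina1b (18.1 against 16.2 CPM per kb) and Serpina1d (18.9 against 8.60), and the 3′ peak at Serpina1a (19.1 against 9.71) and Serpina1c (15.4 against 12.2). At 72 h the start was already a peak of its own at Serpina1d (12.5 CPM in 1993 bp) and Serpina1c (9.46 CPM in 1231 bp), close to the values of 96 h.

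1 of the gaps between peaks lay in sequence that the copies largely share. In bins of 500 bp from -1 to 13 kb along the 5 genes, the bin from 5.5 to 6 kb had the lowest share of unique 50-mers, with a median over the genes of 16.8% against 59% over all bins. The share there was 16.8% at Serpina1b, 23.4% at Serpina1d, 9.8% at Serpina1a, 7.6% at Serpina1c and 36% at Serpina1e. At 72 and 96 h this bin was under 250 bp covered by peaks in all 5 genes, and at 0 and 48 h in 2 and 1 of them. At 72 h the 29 bins of 140 that were under 250 bp covered had a median of 41.2% unique 50-mers, and the other 111 had 62.4%. At 96 h the 69 bins under 250 bp covered had 52% and the other 71 had 62.2%. Other gaps lay in largely unique sequence. At 96 h no base was in a peak from 8 to 8.5 kb at Serpina1e, where 89.2% of 50-mers were unique, or from -1 to -0.5 kb at Serpina1a, where 93.4% were. The part of repeated sequence in the splitting was not tested further.

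**Figure D3:**
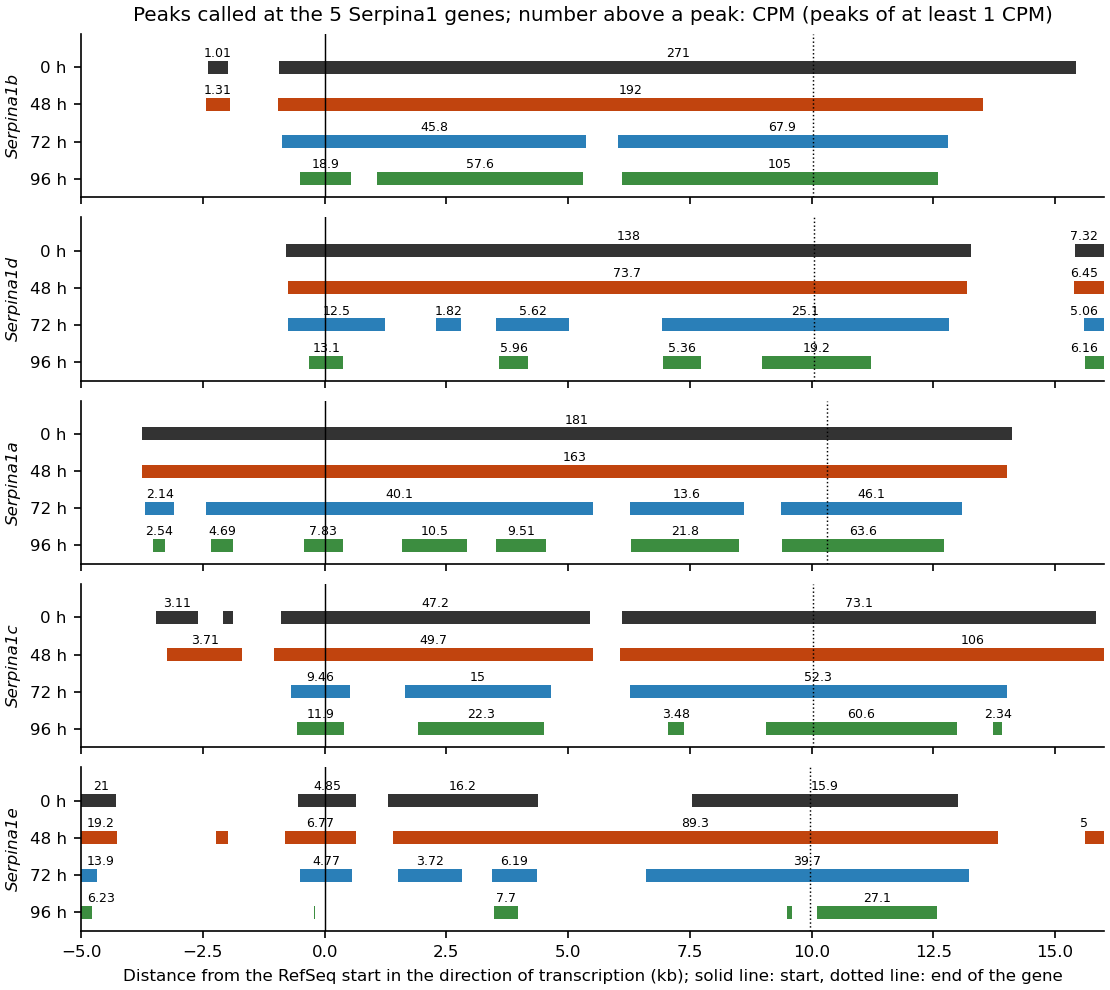
Peaks called at the 5 Serpina1 genes in each library, placed by distance from the RefSeq start (solid line) towards the end of the gene (dotted line), in kb. The number above a peak is its CPM, given for peaks of at least 1 CPM. At 0 and 48 h single peaks run through Serpina1b, Serpina1d and Serpina1a, and at 72 and 96 h every gene has a gap between 5.5 and 6 kb.

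Of the Serpina3 genes, Serpina3k was higher only at 48 h, and the levels of the other 2 stayed within 1.5-fold of 0 h at each time. Serpina3k (chr12:104338486-104346144) stood at 74.2, 123, 73.8 and 81.4 CPM at 0, 48, 72 and 96 h, with differences of 0.72, -0.01 and 0.13. Its levels at 0 and 72 h had overlapping intervals (72.2 to 76.3 and 69.1 to 78.8). The peak over its start, which is also the GENCODE start of Serpina3m, held 74.2, 123, 39.3 and 11.4 CPM in 13408, 13678, 7005 and 922 bp. By that peak alone the gene was lower at 72 and 96 h, by -0.90 and -2.60, while binarised counts gave 0.56 and 0.81, the latter past 1.5-fold. With binarised counts Serpina3k was not past 1.5-fold at 48 h. Serpina3m (chr12:104338486-104394257) stood at 180.1, 252, 119.8 and 129 CPM, with differences of 0.48, -0.58 and -0.47, the second just short of 1.5-fold. These values hold the counts of Serpina3k. With the RefSeq body, which leaves Serpina3k out, the differences of Serpina3m were 0.34, -1.40 and -1.14, past 1.5-fold at 72 and 96 h. That body too ended short of a peak of 5478 bp and 26.4 CPM at 72 h, chr12:104395008-104400485, and of one of 5369 bp and 70.4 CPM at 96 h, chr12:104394560-104399928. With all peaks of the merged regions that touch the RefSeq window, the differences were 0.34, -0.54 and 0.36, none past 1.5-fold. The merged region there held 37.6, 65.3, 27.6 and 70.4 CPM at 0, 48, 72 and 96 h, a difference of 0.89 at 96 h, while the region over the start held 46.7, 41.8, 30.3 and 37.8 CPM, a difference of -0.30.

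Serpina3n, the acute phase gene (chr12:104406729-104414329), had levels of 51.0, 59.7, 34.8 and 55.4 CPM, with differences of 0.22, -0.54 and 0.12. The levels at 48 and 96 h had overlapping intervals (57.0 to 62.5 and 50.2 to 61.0). A peak over the start was the one with the most counts within 5 kb of the gene in all 4 libraries, with 23.8, 31.0, 19.0 and 28.0 CPM in 3334, 5547, 3057 and 2895 bp. Of 50-mers in these peaks at least 97.3% were unique. The lowest of the 4 values, over the gene as over its start, was at 72 h.

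The 2 members at the left edge differed from 0 h in opposite directions. Serpina6, the corticosteroid-binding globulin gene (chr12:103646630-103657212), was lower at every later time, at 190.1, 96.8, 75.6 and 98.4 CPM, with differences of -0.97, -1.32 and -0.94. With binarised counts they were 0.36, 0.16 and 0.53. At 0 h it lay in 1 peak of 22197 bp, the longest in the cluster. At the later times a shorter peak over the start held most of the counts, with 58.2 CPM in 6790 bp at 48 h, 47.2 CPM in 6017 bp at 72 h and 71.7 CPM in 5659 bp at 96 h. Relative to the mean peak of the library, the density of its peaks was 1.32, 1.11, 0.989 and 0.712.

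Serpina10 (chr12:103614786-103631444) was the 1 member at least 1.5-fold higher at 96 h, and it was also higher at 48 h. Its levels were 98.1, 196, 109.9 and 158 CPM, with differences of 0.99, 0.16 and 0.69. At 48 h, 126 CPM lay in a peak of 19851 bp, chr12:103597942-103617792, most of which lies in the body of Ppp4r4. With the counts of all merged regions that touch the gene, the differences were 0.70, 0.43 and 1.31. These include the merged region of that long peak, which held 64.2, 126, 108 and 193 CPM at 0, 48, 72 and 96 h. The peak in it that touches Serpina10 held only 42.2 CPM at 0 h and 54.9 CPM at 96 h. The peak over the start was 8568, 10917, 8385 and 1135 bp long with 50.6, 70.3, 51.8 and 21.4 CPM, so that by the start peak alone the difference at 48 h was 0.47, short of 1.5-fold, and Serpina10 was lower at 96 h, by -1.21. With peaks weighted by the share of bases in the window the difference at 48 h was 0.32. Serpina10 was also short of 1.5-fold higher at 48 h with binarised counts. The same held at 96 h with scaling to regions with a peak in every library. At 96 h the strongest peak was inside the gene, with 82.2 CPM in 6430 bp.

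**Figure D4:**
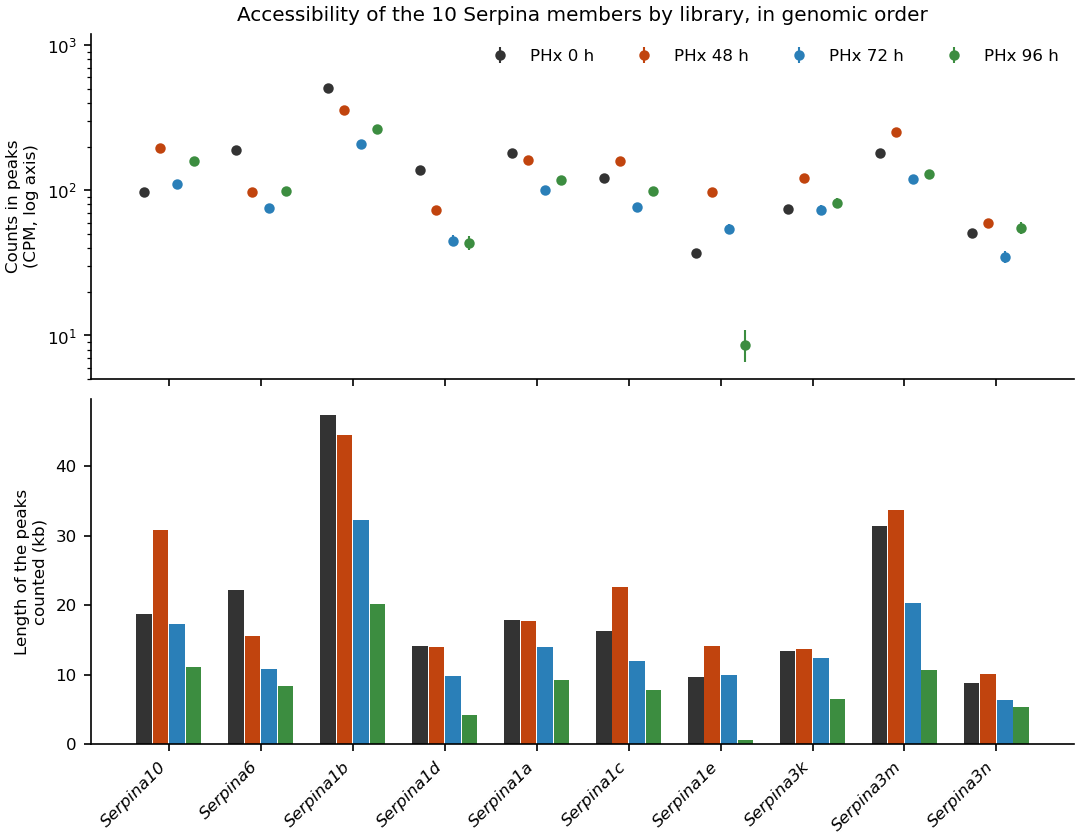
Levels of the 10 members in the 4 libraries (CPM, log axis, with exact 95% Poisson intervals, mostly smaller than the points) and, below, the length of the peaks counted (kb). Serpina1b, with its long GENCODE window, is highest in each library, Serpina1e ranges from 8.57 to 96.7 CPM, and the length counted is shortest at 96 h for every member.

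Levels per kb of window, which correct for gene length, were ordered over the RefSeq bodies with 2 kb upstream, since the GENCODE windows of Serpina1b and Serpina3m are long and hold gaps. Serpina1b led in each library, with 22.6, 16.03, 9.45 and 15.1 CPM per kb at 0, 48, 72 and 96 h. Next at 0 h were Serpina6 (15.1), Serpina1a (14.7), Serpina1d (11.5) and Serpina1c (10.04). At 48 h Serpina1c (13.3), Serpina3k (13.2) and Serpina1a (13.2) followed and lay close together. At 72 h Serpina1a (8.10) and Serpina3k (7.98) followed, and at 96 h Serpina1a (9.57), Serpina10 (9.42) and Serpina3k (8.80). Over the GENCODE windows the order turned, since Serpina1b had only 4.90 CPM per kb at 0 h, and Serpina6 and Serpina1a led there with 15.1 each.

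No stretch of the cluster was called with nearly the same peak length in all 4 libraries. The cluster held 117 merged regions, of which 52 had a peak in each library and 36 in only 1. Over the whole genome 1021 merged regions had 1 peak per library with lengths within 20% of each other. Their median log2 difference from 0 h was 0.07, 0.39 and 0.93 at 48, 72 and 96 h on the same CPM scale. The middle 50% of these regions ran from -0.12 to 0.28 at 48 h, from 0.10 to 0.69 at 72 h and from 0.58 to 1.22 at 96 h. None of them lay at a member, so that the members cannot be placed against them.

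The difference was also measured nucleus by nucleus, after each nucleus had been thinned at random to 1000 counts. Nuclei with at least as many counts at hepatocyte markers as at markers of the other cells numbered 3727, 3691, 3812 and 3110 at 0, 48, 72 and 96 h, and their median counts before thinning were 28163, 12437, 5199 and 3814. Of these, 71.1% (exact binomial 95% interval 69.6% to 72.6%), 67.8% (66.3% to 69.3%), 47.3% (45.7% to 48.9%) and 49.5% (47.7% to 51.3%) had a count at any member. Before thinning the shares were 96.4%, 94.5%, 77.7% and 74.1%. A mean of 1.32, 1.25, 0.725 and 0.762 members had a count in a nucleus. The CPM of the members in these nuclei was 1379, 1393, 792 and 936, close to that of the whole libraries.

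Nuclei with fewer hepatocyte marker counts than others numbered 211, 169, 383 and 63, and their share with a count at any member was 9.95% (6.27% to 14.8%), 17.2% (11.8% to 23.7%), 29.5% (24.98% to 34.3%) and 26.98% (16.6% to 39.7%), at median depths of 3737, 2611, 2270 and 1556. The share in hepatocyte marker nuclei was above this in each library, with intervals that did not overlap. It was also above it when the other class was limited to nuclei with under 25% hepatocyte marker counts (9.59%, 10.2%, 18.1% and 24.3%). Within 10 percentage points of the cut between classes lay 70, 105, 453 and 119 nuclei. At Alb, the albumin gene, which is itself one of the markers that define the classes, the shares in hepatocyte marker nuclei were 41.5%, 49.0%, 39.7% and 41.0%.

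The thinned shares in hepatocyte marker nuclei were also taken by member. Serpina1b was detected in 38.6%, 26.0%, 15.2% and 18.1% of nuclei, Serpina6 in 15.9%, 8.10%, 6.09% and 7.36%, and Serpina1d in 12.3%, 6.45%, 3.73% and 3.18%. Serpina10 was detected in 8.34%, 15.4%, 9.76% and 11.3%. Serpina3k was detected in 6.52%, 10.2%, 6.30% and 5.53%, lower at 96 h than at 72 h with overlapping intervals, whereas the CPM in these nuclei was higher (82.0 against 75.1), as was the case at Serpina3m. Serpina3n had 4.67%, 4.74%, 2.78% and 4.76%, with only the value at 72 h (2.28% to 3.35%) outside the intervals of the others. In the nuclei of the other class at 0 h, Serpina1b was detected in 3.79% and Serpina6 in 2.84%, while 0 of 211 had a count at Serpina10, Serpina1a or Serpina1e. Before thinning, 1.42%, 3.32% and 1.42% of these had a count at the 3 genes.

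**Figure D5:**
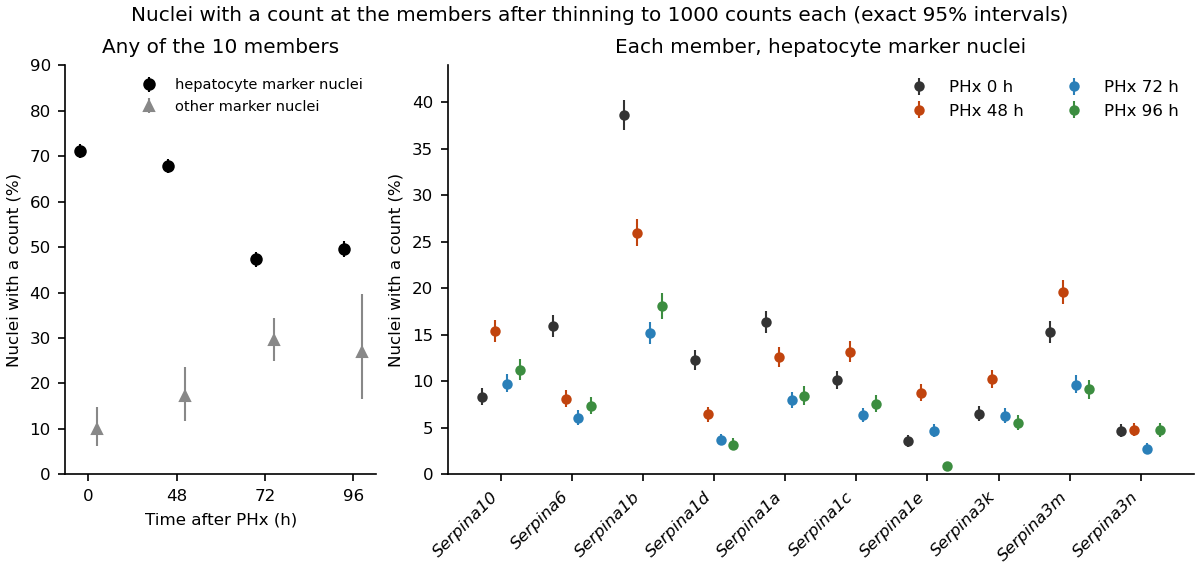
Share of nuclei with a count at any member by class (left) and at each member in hepatocyte marker nuclei (right), after thinning to 1000 counts per nucleus, with exact binomial 95% intervals. On the left, circles are at 71.1% at 0 h and 47.3% at 72 h, and triangles, the nuclei with more counts at markers of other cells, stay below them. On the right, Serpina1b, Serpina6, Serpina1d and Serpina1a are highest at 0 h, and Serpina10, Serpina1c, Serpina1e, Serpina3k and Serpina3m at 48 h.

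Most of the other Serpina genes of the cluster were under the minimum, but Serpina12 at 0 h was above the members Serpina3k, Serpina3n and Serpina1e. Of the 18 other Serpina genes, 6 passed the minimum of 5 CPM in each comparison. The highest at 0 h were Serpina12, the gene of the adipokine vaspin, with 77.7 CPM, Serpina11 with 43.9 and Serpina5, the protein C inhibitor gene, with 24.8. At 48 h, 1 of the 6 was higher and 2 were lower (12.6% and 7.04% of all protein-coding genes past the minimum). At 72 h none was higher and 5 were lower (19.3% and 15.8%), and at 96 h none was higher and 4 were lower (17.4% and 16.9%). The largest differences upwards at 48 h were those of Serpina4-ps1 (0.86) and Serpina9 (0.35), and downwards those of Serpina12 (-0.68) and Serpina5 (-0.60). At 72 h Serpina4-ps1 (-1.96) and Serpina12 (-1.03) were lowest, and Serpina9 (-0.28) and Serpina5 (-0.66) least changed. At 96 h no peak was called over Serpina4-ps1, which had 19.7 CPM at 0 h, Serpina16 was next (-1.44), and Serpina5 (-0.52) and Serpina12 (-0.55) were least changed. The 12 genes under the minimum had at most 6.85 CPM in any library, and Serpina3f and Serpina3l-ps had no peak in any.

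Outside the cluster, 6 serpin genes that liver expresses were measured in the same way. Serpinc1, the antithrombin gene, stood at 335, 326, 339 and 384 CPM, with differences of -0.04, 0.02 and 0.20. Serpinf1, the gene of pigment epithelium-derived factor, had 256, 80.7, 33.1 and 44.2 CPM, with differences of -1.65, -2.91 and -2.51. Serpinf2, the alpha-2 antiplasmin gene, had differences of -0.79, -2.80 and -2.49. Serpind1, the heparin cofactor gene, had -0.29, -1.59 and -2.23, and Serping1, the C1 inhibitor gene, had -0.15, -1.23 and -0.74. Serpina7, the thyroxine-binding globulin gene, passed the minimum only at 48 h, with 12.1 CPM against 4.64 and a difference of 1.22. Thus 1 was higher and 2 were lower at 48 h, beside 12.6% and 7.04% of all protein-coding genes past the minimum. At both 72 and 96 h, 4 of 5 past the minimum were lower, beside 15.8% and 16.9% of all.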

How the data were processed

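The 4 libraries were prepared with a droplet scATAC-Seq kit. The deposited matrices hold counts of transposase cut sites per peak and barcode, which the authors made with Cell Ranger ATAC (version 1.1.0 per the file headers; mm10 per the labels' processing notes), with peaks called in each library. Between 87.3% and 88.6% of values were even, since both ends of a fragment count.

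Counts of peaks that overlap a gene body (GENCODE vM21) or the 2000 bp upstream were summed over barcodes with at least 1000 counts and scaled to CPM. Exact 95% Poisson intervals were taken on counts divided by 2. A gene was called at 1.5-fold and a mean of 5 CPM, with a pseudocount of 1. No test was possible with 1 library per time. Unique 50-mers were counted over 66 sequences of GRCm38.p6. No doublet caller was run. Libraries shared 681 to 882 barcode sequences in pairs. The members, gene lists and marker lists were chosen with earlier results of these data known. Named were all members, the 3 highest other Serpina genes at 0 h with the 2 largest differences each way, and 6 liver serpins. The lookup and fold rule were tested on simulated data. Python 3.11.15, numpy 2.4.6, scipy 1.17.1, pandas 2.3.3, numba 0.67.0, matplotlib 3.10.9 and Biopython 1.88 were used. The closing section gives the effect of 16 alternative settings, 5 of them chosen after seeing the data.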

Additional observations from a re-analysis of the deposited data

Results flagged for a closer look

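Barcodes with under 1000 counts were left out of the report's values, and counts at the members were found in them as well. The members summed to 1394 CPM in 668 such barcodes at 0 h (exact 95% Poisson interval 1228 to 1576), to 1186 CPM in 1081 at 48 h (1061 to 1322), to 919 CPM in 1444 at 72 h (828 to 1017) and to 771 CPM in 1675 at 96 h (691 to 858). The level that 3 counts would give was between 3.43 and 8.18 CPM. At 0 h the value overlapped that of the nuclei with at least 1000 counts, 1368 CPM. It lay below the value of such nuclei at 48 h (1380.1 CPM) and 96 h (929.6 CPM), and above it at 72 h (779 CPM). What these barcodes hold was not tested.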

How the results depend on the processing

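The summed difference of the members kept its sign at 72 and 96 h under all settings except binarised counts at 96 h. The settings that moved it were as follows, in the order 48, 72 and 96 h. Scaling to regions with a peak in every library gave 0.09, -0.75 and -0.66. Binarised counts, in which a peak adds at most 1 to a nucleus however long it is and however deep the nucleus, gave 0.26, -0.06 and 0.23. Peaks over the annotated start alone gave -0.31, -1.68 and -2.09. Peaks weighted by the share of bases in the window gave -0.09 at 48 h and -0.49 at 96 h. Chosen after seeing the data, peaks with at least 80% unique 50-mers gave 0.21, -0.62 and -0.20, all peaks of merged regions -0.02, -0.69 and -0.24, 2 kb on both sides -0.76 at 72 h and -0.33 at 96 h, RefSeq bodies -0.50 at 96 h, and all peaks of merged regions that touch the RefSeq bodies -0.01, -0.67 and -0.17.

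With binarised counts Serpina6 turned to 0.36, 0.16 and 0.53 at 48, 72 and 96 h, Serpina1a to 0.54 and 0.83 at 72 and 96 h, and Serpina1b to 0.21 at 96 h. Over the start alone Serpina10 at 96 h turned to -1.21, and Serpina3k came to -0.90 and -2.60 at 72 and 96 h. The 80% filter on unique 50-mers did not keep the same peaks in every library. For Serpina1b it kept 1 peak of 1.87 CPM at 0 h and others of 6.16 and 5.36 CPM at 96 h, so that the value of 2.13 there is no measure of a change. It left 6 members with a value, none of Serpina1d, Serpina1a, Serpina1c and Serpina1e among them, so that counts of calls under it would be over fewer genes. The cause of these differences between settings was not tested. Counts of members called are given beside the share of all protein-coding genes called in the same direction under that setting, among genes with a value at both times and a mean of 5 CPM. With binarised counts, 0 members were higher and 0 lower at 48 h (9.04% and 4.79% of genes), 1 was lower at 72 h (15.7%), and 3 were higher and 1 lower at 96 h (12.5% and 16.3%). With shared-region scaling, 1 was higher at 72 h (21.7%) and 0 at 96 h (12.9%). Over starts alone, 0 were higher at 96 h (20.7%) and 7 of the 8 members with a value were lower (13.7%), of which Serpina3k and Serpina3m share 1 start. With merged regions 3 were lower at 96 h (11.6%). No such share was computed for unique peaks or for merged regions that touch the RefSeq bodies, so that counts of members called under these settings are not given.

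Of 433 member values recomputed, 408 kept their sign. Regions of near-equal length gave no value in the cluster, and 50 values could not be computed in all. No paired analysis was possible because each time point had 1 library. The shallowest library, at 96 h, had a level of 0.201 CPM for 3 counts, and every member lay above it there.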

Other observations

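The genes that flank the cluster were measured in the same windows, 3 on each side. Ppp4r4, next to Serpina10 and sharing its long peak at 48 h, stood at 137, 196, 169 and 192 CPM at 0, 48, 72 and 96 h. On the far side, Gsc stood at 7.04, 18.5, 24.8 and 9.04 CPM, with log2 differences from 0 h of 1.28, 1.68 and 0.32. Dicer1, which encodes the enzyme that cuts small RNA precursors, stood at 60.3, 84.0, 83.5 and 55.6 CPM. Clmn stood at 506, 386, 353 and 266 CPM, a difference of -0.92 at 96 h, in peaks of 99545, 86864, 61745 and 19668 bp. Ifi27l2a and Ifi27l2b did not pass the minimum of 5 CPM.

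Serpina1f, which lies between Serpina16 and Serpina1b and was under the minimum, had 6.85 CPM in 3 peaks at 48 h, 0.835 CPM at 0 h, 0.728 CPM at 72 h and no peak at 96 h. It is named here after its values were seen.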
